A study of Drosophila melanogaster with 17 samples.

Results

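Untreated eye discs from which E2f1 had been removed in the posterior were set against untreated wild type eye discs, with 3 arrays in each group. These 6 arrays were chosen by their labels out of the 17 arrays of the series. The labels give the E2f1 discs as de2f1, deleted in the posterior, with the genotype e2f1, and the reference discs as wild type. All discs came from Drosophila melanogaster larvae of the 3rd instar raised at 25 °C on standard food, and each array is labelled as a biological replicate. The comparison discs were de2f1 and wild type discs irradiated with 40 Gy of gamma radiation and dissected 4 h later (3 and 2 arrays), and untreated discs of the dDP mutant (3 arrays). Irradiated dDP discs (3 arrays) entered the shared estimate of the spread and the choice of probe set per gene, and no contrast. The driver of the posterior deletion, the strains, the sex of the larvae and the number of discs per sample are not stated in the labels. Any difference in strain background between the groups therefore cannot be told apart from the loss of E2f1.

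E2f1 is the activator among the fly E2F transcription factors and binds DNA together with Dp, and E2f2 is the repressor partner of Dp. In dividing cells E2f1 switches on genes for DNA replication and for entry into S phase, and the retinoblastoma protein Rbf holds it in check. The eye disc is an epithelium that a furrow crosses from posterior to anterior, with cells behind it dividing once more or differentiating into photoreceptors. RNA was taken from discs in which only the posterior lacked E2f1, so the E2f1-positive cells that remained are in the same samples. In such bulk RNA, fewer cells of a type and less RNA per cell cannot be told apart.

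The level of E2f1 itself was not analysed here, because its probe set also carries the symbol Torsin. Dp, the DNA-binding partner, read log2 10.46, 10.30 and 10.50 in de2f1 discs, against 10.37, 10.38 and 10.42 in wild type discs, a difference of 0.03 ± 0.19 (SE, adjusted p = 0.965). The groups overlapped for Dp. In dDP discs Dp read 8.94, 8.06 and 8.27, and the de2f1 minus dDP difference was 1.99 ± 0.19 (adjusted p = 3.4e-06). For the de2f1 discs the genotype is as labelled and was not checked on the arrays.

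The de2f1 discs differed from wild type discs in both directions, mostly by small amounts. Of 18769 probe sets, 1688 passed an adjusted p under 0.05 (8.99%), 731 of them higher (3.89%) and 957 lower (5.1%) in de2f1 discs. Counted by gene, 1283 were called (10.7%), and 558 of 11982 genes were higher (4.66%) and 725 were lower (6.05%). The median size of a called change was 0.47 on the log2 scale, and 91 genes were higher and 77 lower by more than 2-fold. With only 3 arrays a group, 33.3% of all genes had arrays that did not overlap between the groups. Of the 1688 called probe sets 1676 did not overlap, so for a called gene a lack of overlap adds little to the call. Called genes lay on every chromosome arm, from 9.58% of the genes on 3R to 13.8% of the 65 on chromosome 4 (arms from RefSeq).

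**Figure D1:**
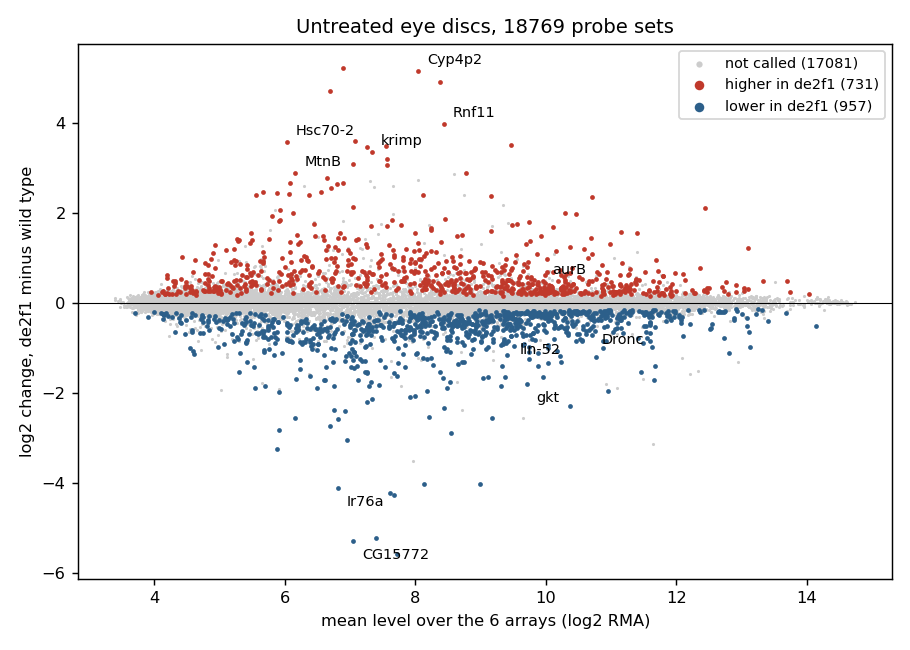
Each point is a probe set, with its mean level over the 6 untreated arrays (log2) on the horizontal axis and its log2 change, de2f1 minus wild type, on the vertical axis. Red points are the 731 called higher, blue points the 957 called lower, and most lie within 1 log2 unit of 0.

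The 6 arrays were alike in scale, with medians of 5.82 to 5.89 and mean correlations with their own group of 0.992 to 0.996. Some marker genes of other tissues differed between arrays of the same group. Salivary gland markers averaged log2 6.51, 11.45 and 9.77 on the de2f1 arrays, against 9.01, 10.42 and 10.63 on the wild type arrays, and 0 of the 12 passed the test. Fat body markers averaged 6.27, 11.79 and 9.43 on the de2f1 arrays, against 6.67, 6.75 and 6.73 on the wild type arrays, with 0 of 4 called and 0 at an unadjusted p under 0.05 in limma. Salivary gland and fat body markers thus went together across the de2f1 arrays, lowest on array 1 and highest on array 2. With the salivary gland mean as a covariate, 1608 probe sets passed, 1519 of them among the 1688. The part of the fat body markers in the other results was not tested.

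**Figure D2:**
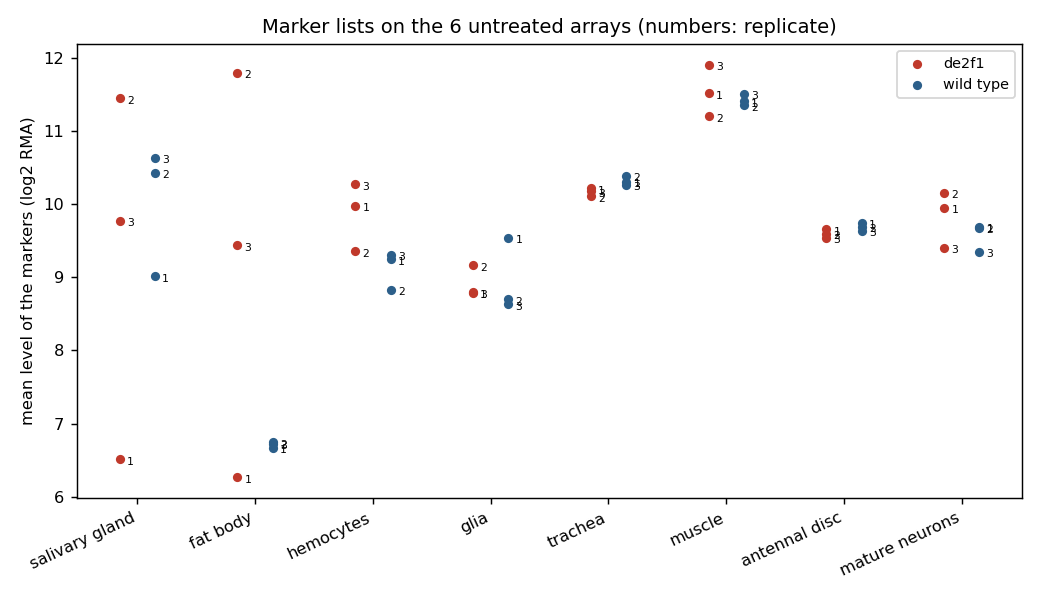
Each point is the mean log2 level of a marker list on 1 array, de2f1 in red to the left and wild type in blue to the right, with the replicate number beside it. The widest spread is that of the salivary gland and fat body markers among the 3 de2f1 arrays.

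The S phase genes, textbook targets of E2F, gave small changes, and most members were not called. Over the 4 lists of replication licensing, polymerase, clamp and nucleotide genes, 10 of 45 measured genes were lower (22.2%, against 6.05% of all genes) and 2 were higher (4.44%, against 4.66%). The median change of the 45 was -0.07, beside -0.00 over all genes. Leaving out 1 array at a time gave 7 to 9 lower and 1 or 2 higher. In irradiated discs 8 of the 45 were lower in de2f1 (17.8%, against 5.92% of all genes) and 7 were higher (15.6%, against 4.45%). The median there was 0.04, with 5 to 8 lower and 4 to 6 higher without any 1 array. Whether the S phase lists differ between the treatments was not tested as a group, and 0 of the 45 genes passed the test of the difference. PCNA, the sliding clamp and a standard E2F target, read 11.77, 11.80 and 11.79 in de2f1 discs, against 11.96, 11.93 and 11.97 in wild type discs. Its groups did not overlap, and its difference of -0.17 ± 0.05 had an adjusted p of 0.0552. PCNA passed under 5 alternatives, among them the fit to de2f1 and wild type arrays only. CycE, the S phase cyclin that E2F controls, read 10.67, 10.74 and 10.68 in de2f1 discs, against 10.61, 10.60 and 10.57 in wild type discs (0.11 ± 0.09, adjusted p = 0.601).

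Among the licensing and origin genes, 2 of 15 were lower (13.3%, against 6.05% of all genes) and 0 were higher (4.66% of all genes), with 1 lower when any 1 array was left out. Mcm10, which helps to activate the helicase at origins, read 8.64, 8.51 and 8.75 in de2f1 discs, against 9.21, 9.02 and 9.11 in wild type discs. It fell by 0.48 ± 0.08 on the log2 scale (adjusted p = 0.00194), and its groups did not overlap. Cdc7, the kinase that acts on the helicase, fell by 0.20 ± 0.06 (adjusted p = 0.0399), a call that was lost without any 1 of the 6 arrays (adjusted p 0.0572 to 0.15). The helicase subunits Mcm2, Mcm3, Mcm5, Mcm6 and dpa gave values of -0.00 to 0.11 and were not called.

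The polymerase and GINS list held changes of both signs, with 2 of 13 higher and 2 lower (15.4% each, against 4.66% and 6.05% of all genes). Psf1, a subunit of the GINS complex that travels with the helicase, read 8.84, 8.78 and 8.88 in de2f1 discs, against 9.33, 9.34 and 9.37 in wild type discs. Psf1 was lower on every de2f1 array, by 0.51 ± 0.06 on average (adjusted p = 0.000132). Psf3, a subunit of the same complex, was higher by 0.30 ± 0.07 (adjusted p = 0.0125). This call did not hold without wild type array 2 (0.26, adjusted p = 0.0662) or without de2f1 array 1 (0.28, adjusted p = 0.0583). The polymerase alpha and primase genes split likewise. PolA2 read 7.77, 7.85 and 7.87 in de2f1 discs, against 8.16, 8.13 and 8.11 in wild type discs, and fell by 0.31 ± 0.06 (adjusted p = 0.00246). Prim2, the large primase subunit, read 8.30, 8.36 and 8.39 in de2f1 discs, against 7.88, 7.94 and 7.92 in wild type discs, and rose by 0.43 ± 0.07 (adjusted p = 0.0018). Neither gene's groups overlapped.

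In the clamp, clamp loader and RPA list, 3 of 13 genes were lower and 0 were higher (23.1% and 0%, against 6.05% and 4.66% of all genes). RfC3, a clamp loader subunit, read 9.19, 9.09 and 9.36 in de2f1 discs, against 9.87, 9.75 and 9.84 in wild type discs, and fell by 0.61 ± 0.11 (adjusted p = 0.0028). The 2 small subunits of RPA, which coats single-stranded DNA, fell together. RPA2 was lower by 0.34 ± 0.06 (adjusted p = 0.00124) and RPA3 by 0.38 ± 0.09 (adjusted p = 0.0108), while RPA1, the large subunit, gave -0.06 and was not called.

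Of the 4 measured genes of deoxynucleotide supply, 3 were lower and 0 were higher, with a median of -0.28. Of all genes, 6.05% were lower and 4.66% higher. The deoxynucleoside kinase gene dnk, which salvages nucleosides, read 10.05, 10.07 and 10.20 in de2f1 discs, against 10.54, 10.47 and 10.58 in wild type discs, and fell by 0.43 ± 0.08 (adjusted p = 0.00372). Ts, thymidylate synthase, fell by 0.34 ± 0.09 (adjusted p = 0.0275), and RnrL, the large subunit of ribonucleotide reductase, by 0.23 ± 0.06 (adjusted p = 0.0371). Each of these calls was lost without any 1 of 5 arrays (adjusted p 0.0596 to 0.125 for Ts and 0.0733 to 0.141 for RnrL). Leaving out de2f1 array 3 kept all 3 calls, and leaving out any other array kept 1. In irradiated discs 1 of the 4 was lower and 1 was higher (25.0% each, against 5.92% and 4.45% of all genes), with a median of -0.05.

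Beside the replication machinery, 2 of 15 genes of chromatin assembly and cohesion were higher and 0 were lower (13.3% and 0%, against 4.66% and 6.05% of all genes). The gene timeout, the fly counterpart of the fork protection protein Timeless, read 8.41, 8.19 and 8.41 in de2f1 discs, against 7.69, 7.60 and 7.64 in wild type discs, and rose by 0.69 ± 0.08 (adjusted p = 4.46e-05). It did not overlap between the groups, and in irradiated discs its change was 1.00. The clock gene tim, a relative of timeout, was higher by 0.46 ± 0.12 (adjusted p = 0.0296), a call that did not hold without wild type array 1 or 2 or de2f1 array 1 or 2 (adjusted p up to 0.134).

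**Figure D3:**
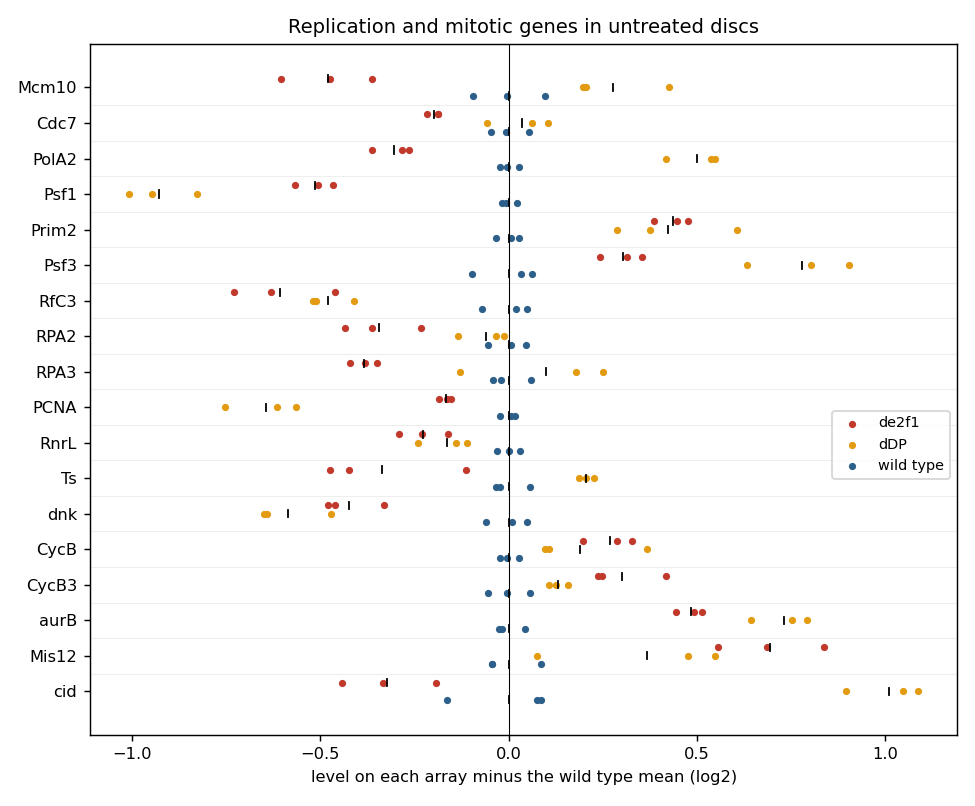
Each point is the level of a gene on 1 untreated array minus the wild type mean of that gene (log2), with de2f1 in red, dDP in orange and wild type in blue, and a black tick at each group mean. The shifts of de2f1 discs are within 1 log2 unit, and PolA2, Mcm10 and cid lie on opposite sides of wild type in de2f1 and dDP discs.

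Mitotic genes had more calls higher than lower. Over the 2 mitotic lists, 5 of 42 genes were higher (11.9%, against 4.66% of all genes) and 1 was lower (2.38%, against 6.05%), with a median of 0.05. The number higher was 2 without wild type array 2 or de2f1 array 1, 3 without wild type array 1, wild type array 3 or de2f1 array 3, and 4 without de2f1 array 2. Mis12, an outer kinetochore subunit, read 8.08, 7.95 and 8.23 in de2f1 discs, against 7.48, 7.35 and 7.35 in wild type discs, and rose by 0.70 ± 0.11 (adjusted p = 0.000731). The mitotic kinase aurB read 10.16, 10.21 and 10.23 in de2f1 discs, against 9.76, 9.70 and 9.69 in wild type discs, and rose by 0.48 ± 0.06 (adjusted p = 0.000115). Both genes were higher on every de2f1 array than on any wild type array. Among the other calls, the spindle checkpoint gene Mad1 was higher by 0.25 and the kinesin gene ncd by 0.21, and cid, the centromeric histone, was lower by 0.32. The Mad1, ncd and cid calls were each lost without at least 2 of the arrays (adjusted p up to 0.0705, 0.0953 and 0.141).

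The mitotic cyclins were also slightly higher. CycB read 11.85, 11.76 and 11.89 in de2f1 discs, against 11.56, 11.54 and 11.59 in wild type discs (0.27 ± 0.07, adjusted p = 0.0317). CycB3 differed by 0.30 ± 0.08 (adjusted p = 0.0221). The groups did not overlap for either gene, but the CycB call was lost without any 1 of 5 arrays and the CycB3 call without any 1 of 3 (adjusted p up to 0.111 and 0.107). The comparison in irradiated discs takes its means from other arrays and shares the estimate of the spread. In irradiated discs CycB and CycB3 were higher in de2f1 by 0.54 and 0.57, both called. The mitotic lists there had 19 of 42 higher (45.2%, against 4.45% of all genes) and 0 lower, with a median of 0.20, and 7 higher without wild type irradiated array 3. Whether the mitotic lists differ between the treatments was not tested as a group, and 0 of the 42 genes passed the test of the difference.

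Of the genes around E2F itself, 1 of the 9 measured was lower and 1 was higher (11.1% each, against 6.05% and 4.66% of all genes). The one lower was lin-52, a subunit of the dREAM complex that holds E2F, RBF and Myb proteins on chromatin. It read 9.02, 9.09 and 9.14 in de2f1 discs, against 9.87, 9.83 and 9.81 in wild type discs, and fell by 0.75 ± 0.07 (adjusted p = 1.08e-05). Its change was -0.76 in irradiated discs. Another dREAM subunit, mip40, was higher by 0.22 ± 0.06 (adjusted p = 0.041), a call lost without any 1 of the 6 arrays (adjusted p 0.0636 to 0.137). E2f2 gave -0.12 ± 0.05 (adjusted p = 0.147) and Rbf 0.06 ± 0.06 (adjusted p = 0.618).

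Of 27 measured DNA repair genes, 4 were lower and 2 were higher, where 6.05% and 4.66% of all genes were. The list was chosen with earlier results of these data known, so these counts are descriptive and not an independent test. The 4 lower calls held with any 1 array left out, and 1 was higher without any array but de2f1 array 2. The gene gkt encodes the enzyme that frees topoisomerase I from DNA ends. It read 8.82, 8.73 and 8.88 in de2f1 discs, against 10.60, 10.58 and 10.69 in wild type discs, and fell by 1.81 ± 0.07 (adjusted p = 8.76e-10). Fancm, a helicase of the Fanconi anemia pathway, fell by 0.90 ± 0.13, agt, which removes alkyl groups from DNA, by 0.73 ± 0.11, and the ubiquitin ligase gene Rchy1 by 0.64 ± 0.07. The arrays of the groups did not overlap for gkt, Fancm, agt and Rchy1, as for nearly all called probe sets.

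Among 15 measured cell death genes, 3 were lower and 2 were higher (20.0% and 13.3%, against 6.05% and 4.66% of all genes). The number lower was 2 and the number higher 1 or 2 without most arrays, and 3 lower without de2f1 array 3. Dronc, the initiator caspase, read 10.52, 10.39 and 10.46 in de2f1 discs, against 10.89 to 11.05 in wild type discs, and its groups did not overlap. Dronc fell by 0.52 ± 0.06 (adjusted p = 6.12e-05), and its change in irradiated discs was -0.64. The caspase Dredd fell by 0.27, while egr, the fly tumor necrosis factor, and its receptor grnd rose by 0.41 and 0.37. The grnd call was lost without any 1 of 4 arrays (adjusted p up to 0.098). The death gene skl read 4.75, 6.26 and 4.94 in de2f1 discs, against 6.99, 4.62 and 4.81 in wild type discs, with 1 high array in each group (adjusted p = 0.918). Its relative grim stayed between 3.59 and 3.78 on all 6 arrays, near the floor of the arrays.

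Calls among genes of eye patterning and differentiation varied by list, where 10.7% of all genes were called. Defining genes of the eye disc were well above the floor on all 6 arrays, such as eya, with 11.79, 11.71 and 11.79 in de2f1 discs, against 11.88, 11.80 and 11.84 in wild type discs, and neither eya nor so was called. None of 22 photoreceptor and cone genes passed in limma, with a median of 0.09 and 5 of them at an unadjusted p under 0.05. Of 11 retinal determination genes, only tio (tiptop), a zinc finger gene related to teashirt, was called (9.09%). It read 7.14, 6.84 and 7.42 in de2f1 discs, against 8.71, 8.37 and 8.62 in wild type discs, and fell by 1.43 ± 0.16 (adjusted p = 4.37e-05). Of 15 furrow and signalling genes 1 was called (6.67%), the dorsal eye selector mirr, which was higher by 0.28. The mirr call was lost without any 1 of 5 arrays (adjusted p up to 0.15), and dpp gave -0.29 (adjusted p = 0.0528). Among 9 genes of the E(spl) complex, which Notch switches on, E(spl)m3-HLH and E(spl)mdelta-HLH were higher by 0.16 and 0.22. These are 22.2% of the list, against 4.66% of all genes higher. Both E(spl) calls were lost without any 1 of 5 arrays (adjusted p up to 0.14 and 0.146).

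Markers of other cells in the disc moved for some cell types. Blood cell markers averaged 9.98, 9.35 and 10.27 on the de2f1 arrays, against 9.24, 8.83 and 9.31 on the wild type arrays, and every de2f1 array was above every wild type array. Of 12 such markers 3 were higher (25.0%, against 4.66% of all genes). The phagocyte receptor NimC1 rose by 1.74 ± 0.27, and the collagen IV genes vkg and Col4a1 by 0.73 and 0.57. The collagen calls were lost without wild type array 2, de2f1 array 1 or de2f1 array 3 (adjusted p up to 0.0863 for Col4a1 and 0.057 for vkg), and the count was 1 without each of these arrays and 6 without de2f1 array 2. The glial transcription factor repo read 8.40, 8.54 and 8.50 in de2f1 discs, against 9.45, 9.04 and 9.04 in wild type discs, and fell by 0.70 ± 0.10 (adjusted p = 0.000615). The other 7 glial markers were not called. In the tracheal list 2 of 7 genes were lower and 1 was higher (28.6% and 14.3%, against 6.05% and 4.66% of all genes), with a median of -0.03. The FGF receptor gene btl fell by 0.74 ± 0.12 and the transcription factor vvl by 0.67 ± 0.15, and vvl lost its call without any 1 of 3 arrays (adjusted p up to 0.0632). The chitin deacetylase gene serp was higher by 0.23 ± 0.07 (adjusted p = 0.0495), a call that did not hold without any 1 of 5 arrays (adjusted p up to 0.202). Lists for ring gland, muscle, antennal disc, neuroblasts and mature neurons held 0 called genes. Wild type array 1 was the highest for 2 marker lists. Neuroblast and optic lobe markers averaged 6.91, 7.66 and 6.85 on the de2f1 arrays, against 8.15, 6.97 and 6.91 on the wild type arrays. Glial markers averaged 8.79, 9.16 and 8.79 on the de2f1 arrays, against 9.54, 8.70 and 8.63 on the wild type arrays. The part of blood cell, neuroblast or glial RNA in the other changes was not tested.

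**Figure D4:**
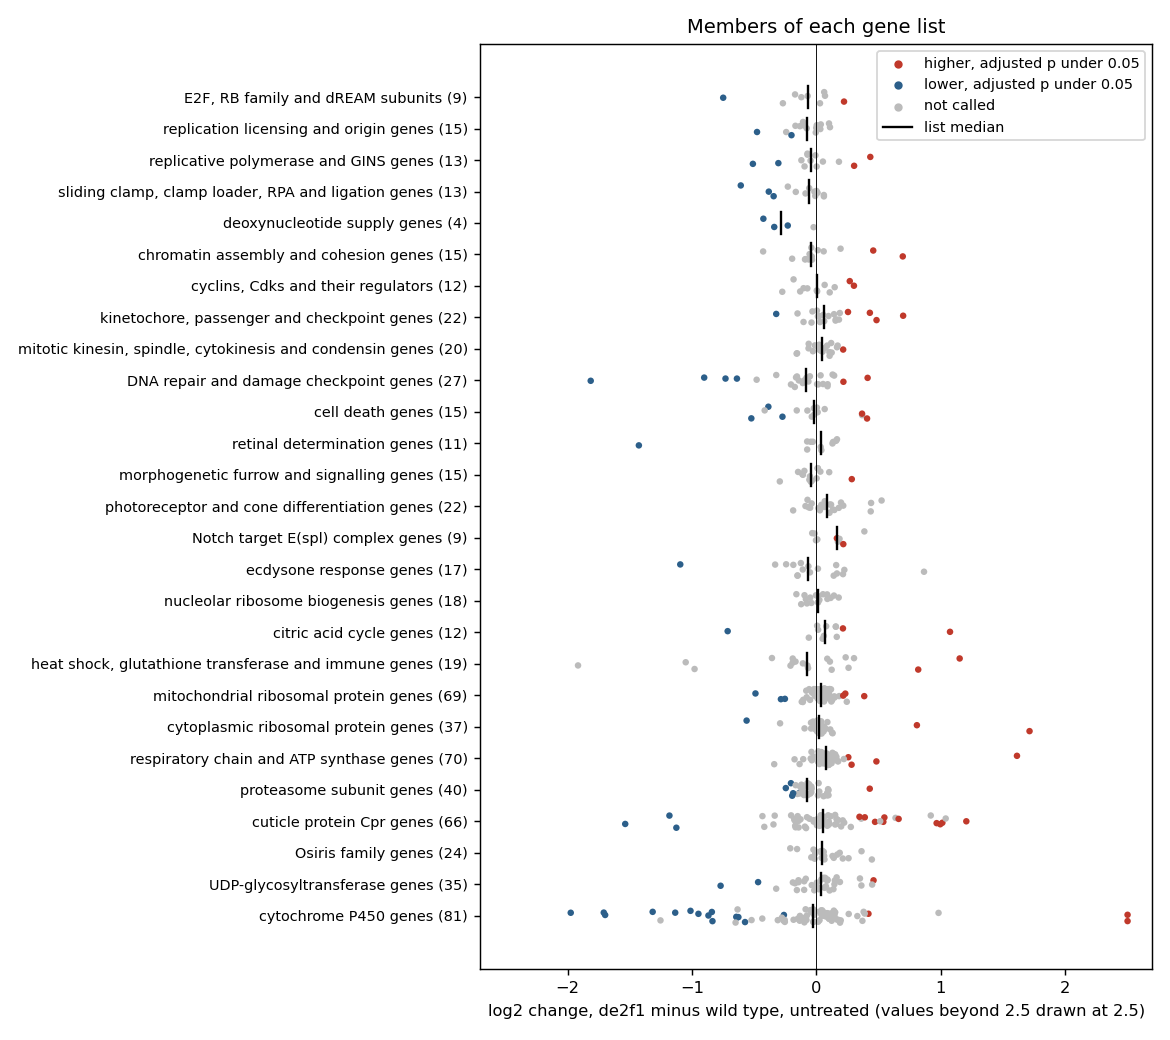
Each point is a measured gene of a list, placed by its log2 change (de2f1 minus wild type, untreated), red or blue where called higher or lower and grey otherwise, with a black bar at the list median and the number of measured genes in brackets, and values beyond 2.5 are drawn at 2.5. Most medians lie near 0, with -0.28 for the 4 nucleotide genes, and the widest changes are single genes, such as gkt among the repair genes and those of the cytochrome P450 list.

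Among the largest increases was that of Cyp4p2. Cyp4p2, a cytochrome P450 gene, read 10.72, 10.67 and 10.45 in de2f1 discs, against 5.37, 5.53 and 5.50 in wild type discs, a 35.4-fold difference (log2 5.15 ± 0.26, adjusted p = 1.17e-08). Its relative Cyp4p1 read 9.26, 9.09 and 8.97 in de2f1 discs, against 5.94, 6.14 and 6.03 in wild type discs (log2 3.07 ± 0.24, adjusted p = 1.2e-06). Both genes had similar levels on all arrays of a group, far apart between the groups. Rnf11, a ubiquitin ligase gene on chromosome 4, read 10.45, 10.45 and 10.36 in de2f1 discs, against 6.65, 6.56 and 6.13 in wild type discs (log2 3.97 ± 0.25, adjusted p = 1.44e-07). The heat shock cognate gene Hsc70-2 read 7.80, 7.84 and 7.79 in de2f1 discs, against 4.09, 4.35 and 4.30 in wild type discs (log2 3.56 ± 0.09, adjusted p = 2.31e-11). The wild type mean of Hsc70-2 lay under 4.6, taken as the floor of the arrays, so its fold change depends on that floor.

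Other large increases were those of krimp and tut, both known from the germline. The gene krimp encodes a Tudor domain protein of the piRNA pathway, and it read 9.16, 8.89 and 8.96 in de2f1 discs, against 5.84, 5.62 and 5.50 in wild type discs (log2 3.35 ± 0.13, adjusted p = 8.76e-10). The RNA-binding protein gene tut, which limits germ cell divisions in the testis, read 9.30, 8.85 and 9.33 in de2f1 discs, against 6.21, 5.89 and 5.84 in wild type discs (log2 3.18 ± 0.15, adjusted p = 8.34e-09). The groups lay far apart for both. A hairpin RNA gene, hpRNA:CR33940, was higher by 2.89 ± 0.12 (adjusted p = 1.18e-09). Other large increases were in CG9150 (3.59), CG32373 (3.47) and CG8768 (3.09), which have no descriptive name.

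In the cytoplasmic ribosomal protein list 3 of 37 genes were called (8.11%, against 10.7% of all genes). RpS19b rose by 1.71 ± 0.16 and RpS5b by 0.81 ± 0.16, while RpL22-like fell by 0.56 ± 0.12. RpS19b read 8.16, 8.22 and 8.13 in de2f1 discs, against 6.39, 6.41 and 6.58 in wild type discs. These are copies of ribosomal protein genes known from ovary and testis. The median of the 37 genes was 0.02, and the groups did not overlap for these 3 paralogs. In the respiratory chain list ATPsynepsilonL, a copy of an ATP synthase subunit gene, rose by 1.61 ± 0.12 (adjusted p = 6.66e-07), and read 9.16, 8.94 and 9.06 in de2f1 discs, against 7.62, 7.53 and 7.17 in wild type discs. The list had 4 of 70 higher (5.71%, against 4.66% of all genes), a median of 0.08, and 2 higher without wild type array 2 or de2f1 array 3.

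In the proteasome list 1 of 40 genes was higher and 5 were lower (12.5% lower, against 6.05% of all genes, and 4.66% of all genes higher), with 1 or 2 lower when any 1 array was left out. Rpt3R, a copy of an ATPase subunit gene, rose by 0.43 ± 0.10 (adjusted p = 0.012). Its call was lost without wild type array 2 or de2f1 array 3 (0.38 and 0.37, adjusted p = 0.0593 and 0.0574). The 5 lower calls were small. The largest was Prosbeta4, a core subunit, lower by 0.25 ± 0.05 (adjusted p = 0.00626), which read 13.09, 13.10 and 13.09 in de2f1 discs, against 13.34, 13.33 and 13.35 in wild type discs. The median over the 40 genes was -0.08. Of 69 mitochondrial ribosomal protein genes 3 were higher and 3 lower (4.35% each, against 4.66% and 6.05% of all genes), between -0.49 for mRpL48 and 0.38 for mRpL35. The 18 genes of nucleolar ribosome biogenesis held 0 calls in limma, with 2 at an unadjusted p under 0.05.

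Subunits of 1 mitochondrial enzyme moved in opposite directions. The enzyme is the NAD-dependent isocitrate dehydrogenase of the citric acid cycle. Idh3g read 10.37, 10.24 and 10.59 in de2f1 discs, against 9.16, 9.36 and 9.47 in wild type discs, and rose by 1.07 ± 0.20 (adjusted p = 0.00349). Idh3b read 10.33, 10.18 and 10.53 in de2f1 discs, against 11.05, 11.02 and 11.12 in wild type discs, and fell by 0.71 ± 0.07 (adjusted p = 1.07e-05). Idh3a gave 0.21 ± 0.06 (adjusted p = 0.0472), a call lost without any 1 of 5 arrays (adjusted p up to 0.183). The other 9 genes of the citric acid cycle list were not called.

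Detoxification and stress genes changed in both directions. Of 81 cytochrome P450 genes 15 were lower (18.5%, against 6.05% of all genes) and 3 were higher (3.70%, against 4.66%). The increases included the Cyp4p genes above. Cyp6a20, known in flies for a role in aggression, read 5.09, 4.76 and 4.91 in de2f1 discs, against 6.94, 6.65 and 7.09 in wild type discs, and fell by 1.97 ± 0.35 (adjusted p = 0.00205). Cyp6d5 and Cyp6a13 fell by 1.71 ± 0.18 and 1.70 ± 0.10. MtnB and MtnD, metallothioneins that bind metal ions, were variable in de2f1 discs. MtnB read 8.27, 6.48 and 8.05 in de2f1 discs, against 4.72, 4.64 and 4.81 in wild type discs (log2 2.88 ± 0.37, adjusted p = 0.000155). MtnD was higher by 2.77 ± 0.61 (adjusted p = 0.0101), with de2f1 array 2 the lowest of the 3 for both genes and no overlap between the groups. GstE3, a glutathione transferase gene, was higher by 1.15 ± 0.22 (adjusted p = 0.00378), and Ugt50B3 of the UDP-glycosyltransferases was lower by 0.77 ± 0.08 (adjusted p = 1.68e-05).

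Of the named genes of innate immunity, pirk and CecB were lower and PGRP-SB1 was higher. The gene pirk, which restrains signalling in the Imd pathway, read 6.36, 6.08 and 6.03 in de2f1 discs, against 8.24, 8.46 and 8.36 in wild type discs, and fell by 2.20 ± 0.17 (adjusted p = 1.5e-06). CecB, an antimicrobial peptide gene, read 6.51, 6.64 and 5.94 in de2f1 discs, against 8.93, 8.21 and 7.52 in wild type discs, with a change of -1.85 ± 0.35 (adjusted p = 0.00337). PGRP-SB1, a peptidoglycan recognition gene, rose by 0.82 ± 0.14 (adjusted p = 0.00159). In the list of heat shock, glutathione transferase and immune genes, 2 of 19 were higher and 0 were lower, with a median of -0.07. These are 10.5% and 0%, against 4.66% and 6.05% of all genes.

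Among the largest decreases was that of CG15772. This gene read 4.41, 4.55 and 4.25 in de2f1 discs, against 9.63, 9.78 and 9.68 in wild type discs (log2 -5.29 ± 0.25, adjusted p = 7.01e-09), and its de2f1 mean lay under the floor of 4.6. CG6912 differed by -4.22 ± 0.29 (adjusted p = 3.33e-07). Ir76a, an ionotropic receptor gene, read 4.78, 4.74 and 4.74 in de2f1 discs, against 8.89, 8.93 and 8.80 in wild type discs (log2 -4.12 ± 0.08, adjusted p = 4.67e-13). For CG15772 and Ir76a all 3 de2f1 arrays read 4.78 or less and all 3 wild type arrays 8.80 or more. The gene t, or tan, which frees dopamine from its beta-alanine conjugate, fell by 1.95 ± 0.20 (adjusted p = 1.42e-05). Among ecdysone response genes Eip78C, a nuclear receptor, was lower by 1.09 ± 0.27 (adjusted p = 0.0194). Its call was lost without wild type array 2, de2f1 array 2 or de2f1 array 3 (adjusted p up to 0.0933), and 1 of 17 genes of its list was called.

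Cuticle protein genes were called more often as higher than as lower, 10 and 3 of 66 (15.2% and 4.55%, against 4.66% and 6.05% of all genes). Cpr65Ec read 8.50, 8.58 and 8.32 in de2f1 discs, against 7.39, 7.06 and 7.34 in wild type discs, and rose by 1.20 ± 0.18 (adjusted p = 0.000602). Cpr47Eb went the other way and fell by 1.54 ± 0.25 (adjusted p = 0.00104). The list median was 0.05. Of 24 Osiris genes 0 were called in limma, against 10.7% of all genes, with 4 at an unadjusted p under 0.05.

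Several genes changed in 1 probe set and not in another. Sequence differences between the strains under the probes were not examined. Of 26 genes with several probe sets and a called change beyond 2-fold, 13 had another probe set called in the same direction and 13 had none. In 1 gene, mod(mdg4), the largest change was -1.57, and of its 21 other probe sets 3 were called lower and 3 higher. RFeSP encodes the Rieske protein of respiratory complex III. Its dimmer probe set read 4.81, 5.07 and 4.88 in de2f1 discs, against 10.48, 10.48 and 10.59 in wild type discs (-5.59 ± 0.08), while its brighter probe set gave 0.14. For hts, the fly adducin gene, 1 probe set gave -1.96 and the other 4 gave -0.10 to 0.12. For jim, a zinc finger gene, 1 probe set gave 2.11 and the others -0.05 and -0.12. The 3 probe sets of gkt gave -4.04, -1.81 and -0.12, the last with all 6 arrays between 4.42 and 4.68. The polarity gene scrib gave -2.15 and -1.15 in 2 probe sets and smaller values in the other 3.

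The same genotype comparison in irradiated discs uses other arrays and again called most of the larger changes. There 1619 probe sets were called (8.63%), 691 higher (3.68%) and 928 lower (4.94%), which is 10.4% of genes. Of the calls, 1096 were made in both comparisons with the same sign, which is 64.9% of those in untreated discs and 67.7% of those in irradiated discs. Of the 1688 probe sets called in untreated discs, 98.5% had the same sign in irradiated discs, beside 71.3% of all probe sets. Of the 168 genes changed by more than 2-fold, 149 were called again and 168 kept their sign. The irradiated count was 933 without wild type irradiated array 1 and 737 without wild type irradiated array 3.

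**Figure D5:**
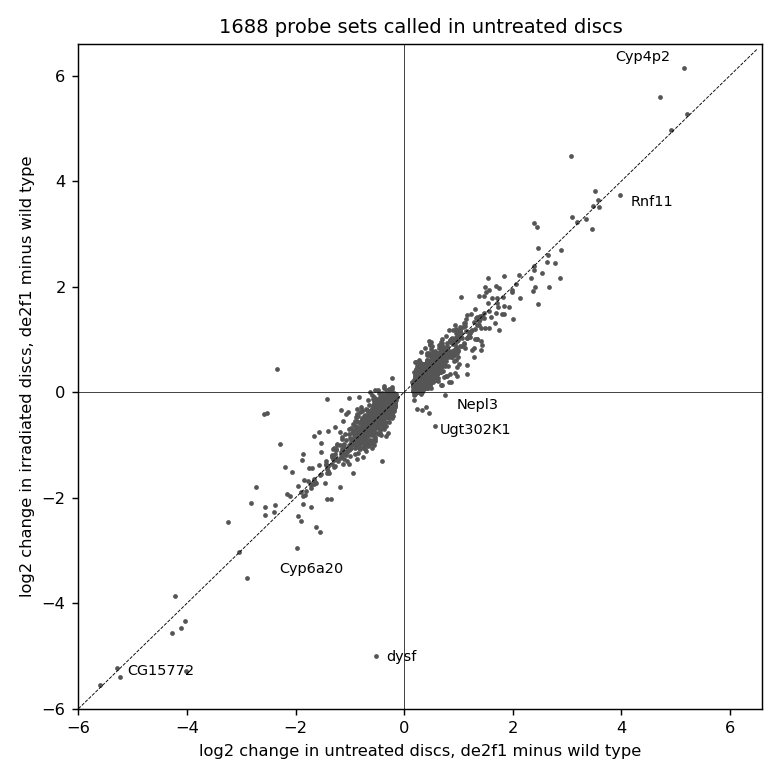
Each point is 1 of the 1688 probe sets called in untreated discs, with its log2 change (de2f1 minus wild type) in untreated discs on the horizontal axis and in irradiated discs on the vertical axis, and the dashed line marks equal changes. Most points lie near the line, with dysf far below it and Nepl3 and Ugt302K1 near or under 0 in irradiated discs.

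The test of the difference between irradiated and untreated discs called 10 probe sets (0.0533%), all with a lower value of the de2f1 effect in irradiated discs. For dysf, a transcription factor of tracheal fusion, 1 probe set read 4.73, 4.46 and 4.79 in irradiated de2f1 discs, against 9.62 and 9.70 in irradiated wild type discs. In untreated discs it read 4.91, 4.93 and 4.83 in de2f1 discs, against 5.64, 4.95 and 5.66 in wild type discs. For ftz-f1, a nuclear receptor of the ecdysone cascade, 1 probe set read 6.32, 5.92 and 5.65 in irradiated de2f1 discs, against 9.85 and 10.37 in irradiated wild type discs, and 6.02, 5.48 and 5.93 in untreated de2f1 discs, against 6.88, 6.26 and 6.69 in untreated wild type discs. Both genes stood out through the irradiated wild type arrays. The other probe sets of the same genes gave -0.09 and -0.27 for dysf and -0.20 for ftz-f1 in irradiated discs. Nepl3, a neprilysin-like peptidase gene, had its larger change in untreated discs (0.76, against -0.05 in irradiated discs). Nepl3 read 9.77, 9.93 and 9.85 in irradiated de2f1 discs, against 9.91 and 9.88 in irradiated wild type discs, and 9.35, 9.12 and 9.42 in untreated de2f1 discs, against 8.67, 8.44 and 8.51 in untreated wild type discs. The number of calls was 1 without wild type irradiated array 3 and at most 8 without any other array.

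Against the dDP mutant 4184 probe sets were called (22.3%), 2232 higher (11.9%) and 1952 lower (10.4%) in de2f1 discs, or 28.3% of genes. This comparison shares the de2f1 arrays with the one against wild type, so the values stand side by side and no overlap is given. The 3-prime minus 5-prime actin signals were 2.00 to 2.27 on the de2f1 arrays, against 1.90, 3.05 and 3.26 on dDP arrays 1, 2 and 3. Salivary gland markers averaged 6.51 to 11.45 on the de2f1 arrays, against 5.76 to 6.73 on the dDP arrays, and fat body markers 6.27 to 11.79 on the de2f1 arrays, against 7.39 to 13.31 on the dDP arrays. Blood cell markers averaged 9.35 to 10.27 on the de2f1 arrays, against 7.73 to 8.27 on the dDP arrays, and 9 of 12 were higher (median 1.75). Ring gland markers averaged 9.50 to 9.98 on the de2f1 arrays, against 7.66 to 8.60 on the dDP arrays, and 4 of 6 were higher (median 1.57). The shares higher were 75.0% for blood cell and 66.7% for ring gland markers, against 14.7% of all genes. With the salivary gland mean as a covariate, 3305 probe sets passed, 3109 of them among the 4184. The part of the actin signals and of the fat body, blood cell and ring gland markers in the differences was not tested.

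With all arrays in the fit and no covariate, most of the S phase, mitotic and repair genes were called lower in de2f1 discs than in dDP discs. Of the 45 S phase genes 28 were lower and 2 higher (62.2% and 4.44%, against 13.6% and 14.7% of all genes), with a median of -0.29, and 26 to 29 were lower without any 1 array. Of the 42 mitotic genes 26 were lower and 3 higher (23 to 25 lower without any 1 array), and of the 27 repair genes 19 were lower and 0 higher (61.9% and 70.4% lower, against 13.6% of all genes), with medians of -0.25 and -0.51. Beside this, the median of dDP minus wild type was 0.21 for the S phase genes, 0.34 for the mitotic genes and 0.43 for the repair genes. Fewer genes were called lower in de2f1 than in dDP discs with only the arrays of this contrast in the fit. These were 21 of 45 S phase, 18 of 42 mitotic and 15 of 27 repair genes (2, 0 and 0 higher). With the salivary gland mean as a covariate, 24, 19 and 16 were lower (2, 1 and 0 higher). A majority of the mitotic genes was lower in neither of these fits. PolA2 read 7.77, 7.85 and 7.87 in de2f1 discs, against 8.55, 8.67 and 8.68 in dDP discs, with wild type between them. PCNA was an exception, with 11.77, 11.80 and 11.79 in de2f1 discs, against 11.20, 11.39 and 11.34 in dDP discs (0.48 ± 0.05, adjusted p = 9.6e-06).

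The genes with the largest changes against wild type fell into different cases beside dDP. Hsc70-2 and tut were high in de2f1 discs and not in dDP discs. Hsc70-2 read 7.80, 7.84 and 7.79 in de2f1 discs, against 4.24, 4.46 and 4.20 in dDP discs, and tut read 9.30, 8.85 and 9.33 in de2f1 discs, against no array above 5.94 in dDP discs. Rnf11 differed by 2.13 ± 0.25 between de2f1 and dDP discs, with 8.91, 8.22 and 7.73 in dDP discs. By contrast the level of krimp was 9.31, 9.40 and 9.20 in dDP discs, and its de2f1 minus dDP difference of -0.30 ± 0.13 was not called (adjusted p = 0.12). Cyp4p2 (0.55 ± 0.26), CG32373 (0.04 ± 0.12), CG8768 (-0.02 ± 0.17) and Ir76a (0.08 ± 0.08) were not called between de2f1 and dDP discs either. CG9757 read 7.02, 6.15 and 8.15 in de2f1 discs, against 11.30, 11.68 and 11.47 in dDP discs and 9.81, 10.01 and 10.17 in wild type discs, so it was lowest in de2f1 and highest in dDP.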

How the data were processed

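Total RNA (50 ng) of eye discs was hybridised to Affymetrix Drosophila Genome 2.0 arrays, per the labels. The authors deposited log2 values, 1 per probe set, for which the submitters' processing notes name RMA without a version. No scaling was added. Tests covered 18769 probe sets, after 183 controls were set aside. Of these, 13647 had 1 gene symbol, 402 had several and 4720 had none. Genes were read from the probe set with 1 symbol and the highest mean over the 17 arrays, which gave 11982 genes. The arrays give no counts, so the number of arrays sets the precision.

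Group means were estimated from the 17 arrays together (limma 3.58.1 under R 4.3.3, functions lmFit and eBayes, prior of 2.56 degrees of freedom, prior SD 0.0935). The contrasts were de2f1 minus wild type in untreated and in irradiated discs, the difference of these 2 changes, and de2f1 minus dDP in untreated discs. Calls needed an adjusted p under 0.05 (Benjamini-Hochberg, per contrast, every tested probe set included), and errors given with a change are standard errors of that fit. The code was tested on simulated data. Python 3.11.15, pandas 2.3.3 and matplotlib 3.10.9 were used for annotation and plots.

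The genes and gene lists were chosen with earlier results of these data known, so the shares of list members called are descriptive. Genes named are a fixed set around E2F, the largest called changes without overlap of arrays (up to 15 each way), up to 4 called members per list by adjusted p, and the closest 2 where a list had under 2 called. The genes called for the difference, those called with opposite signs, and the genes with disagreeing probe sets were added after their values were seen. The pattern for cytochrome P450 genes also matched 2 cyclophilins, which were left out.

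The results were recomputed with other priors (trended, robust), with weights per array, without the dimmest 40% of probe sets, with a single probe set for each gene and after quantile normalization. They were also recomputed with fewer arrays in the fit, with the salivary gland marker mean as a covariate, with a block for the replicate number, and without each array. Same-numbered de2f1 and wild type arrays deviated from their group means with correlations of 0.06, -0.19 and 0.05 across probe sets, so the numbers were not taken as pairs.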

Additional observations from a re-analysis of the deposited data

Results flagged for a closer look

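The change from wild type to de2f1 discs passed a test of the difference between irradiated and untreated discs for 10 probe sets (limma, adjusted p under 0.05 over all probe sets). The difference, irradiated minus untreated on the log2 scale, was -4.48 for dysf, -3.34 for ftz-f1, -2.02 for CG4962, -1.47 for a probe set with no gene symbol, -1.24 for CG32313, -1.08 for CG31601, -0.85 for Ugt302K1, -0.80 for Nepl3, -0.57 for Ugt303A1 and -0.45 for La. The irradiated wild type discs, which carry much of these values, had 2 arrays. The group means of Ugt303A1 lay under the floor of 4.6 in de2f1 and in wild type discs of both treatments. Those of CG31601 lay under it in all these groups but irradiated wild type, and CG32313 was under it in untreated de2f1 discs only (4.58).

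A further 3 genes were called in both treatments with opposite signs. The difference was -0.55 for AdamTS-B (adjusted p = 0.0845), -1.21 for amd (adjusted p = 0.148) and 0.49 for mars (adjusted p = 0.117), so it did not pass for any of them.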

How the results depend on the processing

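The count of probe sets changed in untreated discs (1688) ranged from 1158 to 1324 with 1 array left out, and from 1383 to 2496 under the other alternatives, of which 1 probe set per gene (1383) tested fewer. Quantile normalization moved the share of calls that were higher to 49.1%, against 43.3%, and leaving out de2f1 array 2 to 50.3%. With the replicate number as a block 1500 were called, 1465 of them among the 1688, and not every array deviated most like its own number. In irradiated discs (1619) array weights gave 2781, and leaving out 1 array gave 737 to 1281. The difference between treatments (10) had 27 calls with array weights, 3 with the replicate block and 1 to 8 with 1 array left out. Against dDP (4184) the 6 arrays of the contrast alone gave 2360, and leaving out 1 array gave 3172 to 4982. The causes were not tested. Of 132 named genes 101 were called, 73 of them under every alternative run, and 0 of the called genes reversed. Some genes that were not called changed sign between the alternatives, such as skl (-0.63 to 0.60). The fit to de2f1 and wild type arrays only was not run for dDP or for the difference. Probes near the floor of 4.6 limit the smallest levels. No array detection calls were used.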
